A study of Mus musculus with 4 samples.

Results

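The genes of the alternative complement pathway and its receptors were examined in RNA-seq of mouse tibial bone marrow. The members were chosen by name and comprised C3, Cfb (factor B), Cfd (adipsin, also called factor D), Cfp (properdin), Hc (complement component C5), C3ar1 and C5ar1. These are 7 of the 55401 genes in the deposited tables, and all 7 were among the 18596 genes with a mean of at least 0.1 FPKM (fragments scaled to transcript length and library size) over the 4 libraries. All 4 libraries came from wild-type male C57/B6 mice that were 8 weeks old when a high-fat diet (HFD) was started to make them obese. In the obesity group (Ob, n = 2 libraries) the treatment was HFD feeding alone. In the exercised group (Ob + Exe, n = 2 libraries) HFD feeding was combined with moderate treadmill running for 12 weeks. The study asked how exercise remodels bone in diet-induced obesity, and adipsin was among the proteins it followed. The labels number the replicates but do not state that each was a separate mouse, so the p values measure only the spread between these libraries.

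The labels also give a cell line, mesenchymal stem cells, and a cell type, fibroblast, whereas the methods describe marrow spun out of the bone. In the data, the 12 listed neutrophil genes summed to 28334 to 65962 scaled FPKM (FPKM divided by a library factor) and the 8 listed erythroid genes to 41981 to 65212, against 124 to 194 for the 12 listed stroma and fibroblast genes. The libraries were therefore described as whole marrow. They held 44310505 to 53038186 read equivalents on transcripts (read coverage times transcript length, divided by a read length of 150 bases), and both Ob libraries were deeper than both Ob + Exe libraries. In bulk marrow, fewer cells of one type and less RNA per cell cannot be told apart.

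The alternative pathway is the branch of complement that runs without antibody. A trace of C3 is always being activated, and the activated form binds factor B. Adipsin, a serine protease secreted mainly by adipocytes, cuts the bound factor B and completes the C3 convertase, the enzyme that cleaves more C3. Properdin holds the convertase together, and the convertase goes on to cleave C5, the start of the membrane attack complex. The small fragments C3a and C5a act as ligands of the receptors C3ar1 and C5ar1, which are carried by myeloid cells. Most circulating C3, factor B and C5 is made by the liver, and properdin is made and stored by white blood cells.

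Promoter windows from RefSeq (GRCm38.p6) were found for 6 of the 7 members, and none was found for Cfb. The 250 bases before the start of transcription are printed for C3 and Cfp, the members with the highest level, and for Cfd, the adipsin gene. Each start is that of the leading transcript of the gene in the deposited tables. The window of C3 is chr17:57228137-57228386 on the minus strand, that of Cfd chr10:79890603-79890852 on the plus strand and that of Cfp chrX:20931556-20931805 on the minus strand. Sequences run 5′ to 3′, and capitals mark matches to 4 short motifs searched on both strands: the TATA box TATAAA, the C/EBP core TTGCNNAA, the PU.1 core GAGGAA and the nuclear receptor half-site AGGTCA.

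C3: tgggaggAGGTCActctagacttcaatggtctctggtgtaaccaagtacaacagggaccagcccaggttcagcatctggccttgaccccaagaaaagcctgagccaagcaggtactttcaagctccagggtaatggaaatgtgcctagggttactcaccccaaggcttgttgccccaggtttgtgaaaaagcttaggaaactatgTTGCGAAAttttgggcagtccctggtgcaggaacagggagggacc

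Cfd: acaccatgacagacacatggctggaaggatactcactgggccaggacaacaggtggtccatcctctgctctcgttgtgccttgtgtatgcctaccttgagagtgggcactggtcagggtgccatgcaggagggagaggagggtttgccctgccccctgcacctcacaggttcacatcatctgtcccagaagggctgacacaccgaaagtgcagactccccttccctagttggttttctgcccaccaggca

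Cfp: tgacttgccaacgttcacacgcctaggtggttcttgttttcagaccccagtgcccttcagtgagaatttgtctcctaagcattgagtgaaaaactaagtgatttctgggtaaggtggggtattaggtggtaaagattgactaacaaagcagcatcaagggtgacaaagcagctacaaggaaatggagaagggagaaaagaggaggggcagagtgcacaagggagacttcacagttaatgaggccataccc

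In the C3 window, 1 C/EBP core began 45 bases before the start and 1 nuclear receptor half-site 243 bases before it, and they did not overlap. The windows of Cfd, Cfp and C5ar1 held no match to any of the 4 motifs, and those of Hc and C3ar1 each held 1 TATAAA, at 239 and 235 bases before the start. Of 32851 promoter windows of the same length, 9.56% held the C/EBP core, 14.0% the half-site, 12.4% TATAAA and 23.3% GAGGAA. A match describes these letters only, and factor binding was not measured.

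The members fell into a high and a low tier of scaled FPKM, a scale per transcript length on which genes can be compared. Properdin had the highest mean over the 4 libraries (47.4 ± 3.17, SD, n = 4), followed by C3 (45.4 ± 11.2) and C5ar1 (28.0 ± 11.4). The low tier began 17.6-fold lower, with Cfb (1.59 ± 0.328), Cfd (1.18 ± 0.445), C3ar1 (1.05 ± 0.305) and Hc (0.236 ± 0.162). Neighbours in this order had overlapping ranges over the libraries, except for the step from C5ar1 to Cfb and the 4.47-fold step from C3ar1 to Hc. RNA for C3, properdin and the C5a receptor was thus abundant in marrow, adipsin, factor B and the C3a receptor were low, and C5 was near the minimum for testing.

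None of the 7 members passed the test for a difference between Ob + Exe and Ob. A gene was called when limma gave an unadjusted p under 0.05 with a log2 fold change beyond 1, which 3.71% of all genes tested met. For the members 0 of 7 were called and 0 had an unadjusted p under 0.05, and limma voom on read equivalents likewise gave 0 and 0. The adjusted p of the members lay between 0.960 and 0.985, and the smallest over all genes was 0.768. Estimates were above 0 for 6 members and below 0 for Cfd, with a median log2 fold change of 0.26 beside -0.02 over all genes tested. On scaled FPKM, both Ob + Exe libraries stood above both Ob libraries for 3 of 7 members (Cfb, Cfp and C3ar1). This held for 14.0% of all genes tested, and no member had both Ob + Exe libraries below. Of the 3, only C3ar1 kept this order both in the deposited FPKM and in read equivalents per 1000000 on transcripts. In either direction, groups that did not overlap were found for 32.7% of all genes.

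**Figure D1:**
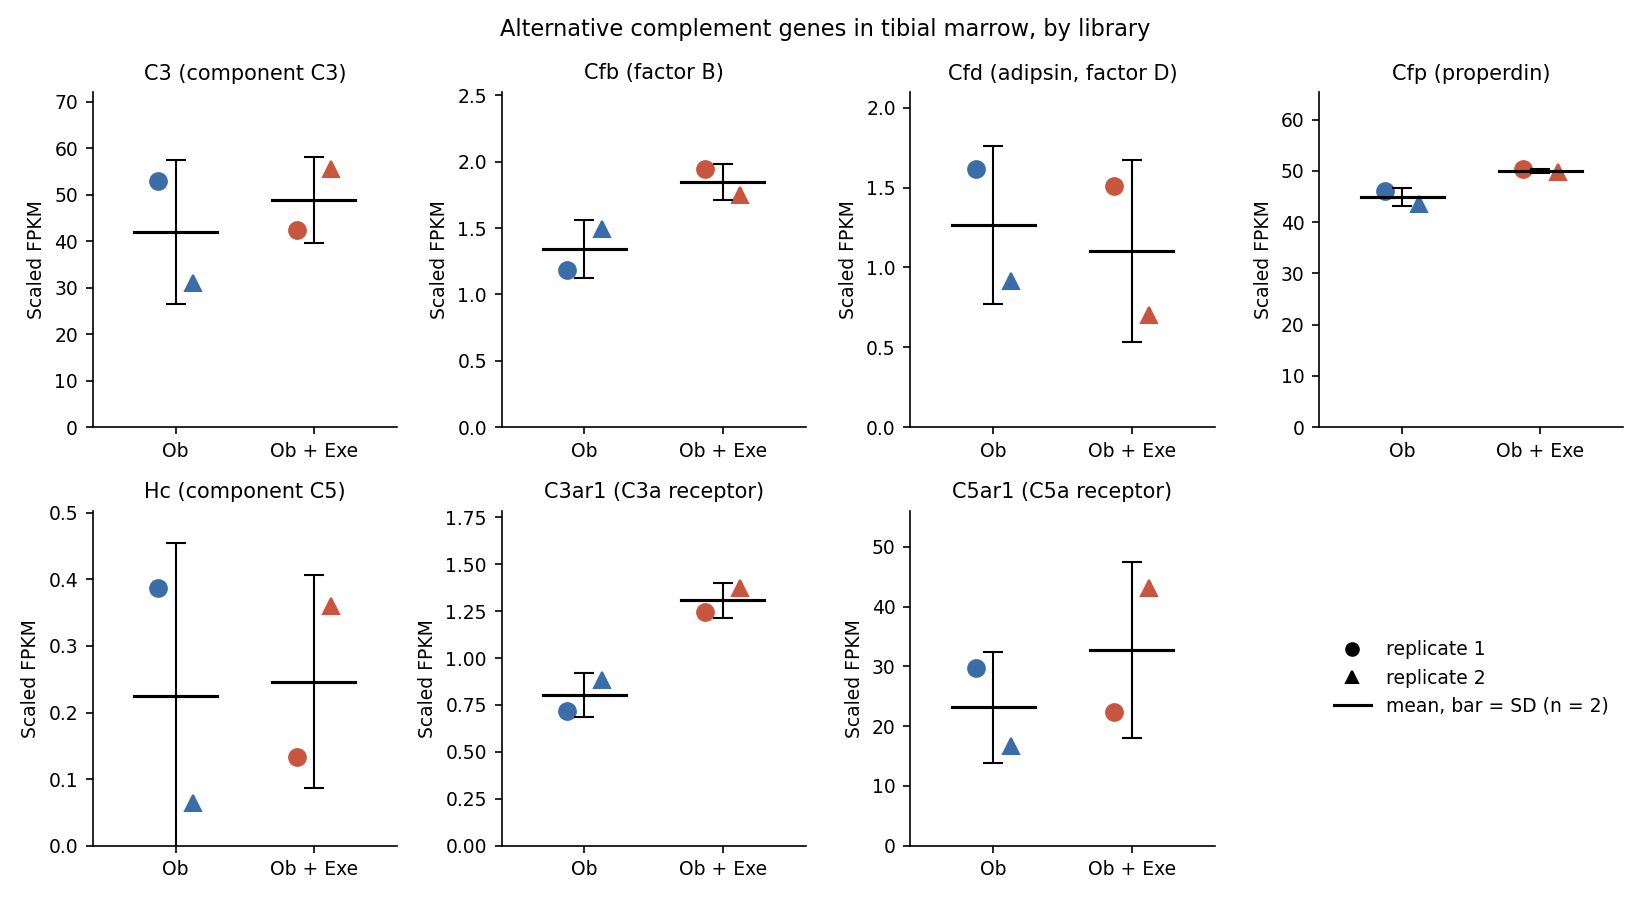
Scaled FPKM of the 7 alternative complement genes in each library (circle, replicate 1; triangle, replicate 2), with the group mean as a line and the SD as a bar (n = 2; the bar of Hc in the Ob group is cut off at 0). The 2 groups overlap for C3, Cfd, Hc and C5ar1, and both Ob + Exe points lie above both Ob points for Cfb, Cfp and C3ar1.

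C3, the central substrate of the pathway (ENSMUSG00000024164.15, chr17:57203970-57228136, minus strand), had scaled FPKM of 52.9 and 31.0 in Ob replicates 1 and 2 against 42.3 and 55.4 in Ob + Exe. The lowest value was in Ob replicate 2 and the highest in Ob + Exe replicate 2, and the groups overlapped. The means were 41.9 ± 15.5 and 48.9 ± 9.27 (SD, n = 2 each), a log2 fold change of 0.26 (SE 0.316, 95% interval -0.52 to 1.04, limma adjusted p = 0.971). All of the C3 signal was assigned to 1 of 4 annotated transcripts, of 41 exons, with 10563 to 18476 read equivalents per library. A microRNA gene inside C3, Mir6978, was at 0 in all libraries. Leaving out any library moved the estimate by over 1.5 times: it was 0.64 without Ob replicate 1, -0.14 without Ob replicate 2, 0.45 without Ob + Exe replicate 1 and 0.06 without Ob + Exe replicate 2.

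Factor B, the zymogen of the convertase (Cfb, ENSMUSG00000090231.10, chr17:34856374-34862518, minus strand), had scaled FPKM of 1.18 and 1.49 in Ob replicates 1 and 2 against 1.94 and 1.75 in Ob + Exe. Both Ob + Exe libraries stood above both Ob libraries on this scale. The means were 1.34 ± 0.219 and 1.85 ± 0.136 (SD, n = 2 each), a log2 fold change of 0.44 (SE 0.402, 95% interval -0.55 to 1.44, limma adjusted p = 0.960). The order did not hold on depth-scaled read equivalents (per 1000000 on transcripts), which were 4.18 and 4.31 for Ob against 2.79 and 4.56 for Ob + Exe, so that Ob + Exe replicate 1 moved from highest to lowest. By limma voom on read equivalents the log2 fold change was -0.20 (adjusted p = 0.973).

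The difference between these scales lay in the transcripts to which reads were assigned. The full 18-exon transcript of Cfb, 2751 bases long, received 222 and 191 read equivalents in Ob replicates 1 and 2 against 34 and 188 in Ob + Exe. In Ob + Exe replicate 1, 89.2% of the Cfb FPKM came instead from a 6-exon transcript of 887 bases, with 90 read equivalents, whereas this transcript made up 0% to 29.0% in the other libraries. FPKM divides by transcript length, so a read on the shorter transcript raises FPKM more. With the 18-exon transcript alone the log2 fold change was -0.91 (limma adjusted p = 0.960).

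Cfb also overlaps Gm20547, a 30-exon gene model (chr17:34856412-34882042, minus strand) that runs over both Cfb and its neighbour C2, the classical-pathway paralog of factor B. Gm20547 was given 0 and 35 read equivalents in Ob replicates 1 and 2 against 306 and 0 in Ob + Exe. Reads of Cfb and Gm20547 cannot be told apart over their shared exons, and factor B is uncertain for that reason. With the FPKM of Gm20547 added to Cfb, an alternative chosen after seeing the data, the log2 fold change was 0.75 (limma adjusted p = 0.960), and with the read equivalents added it was 0.61 (voom adjusted p = 0.959). Both of these sums also count the Gm20547 signal that lies over C2. The direction for factor B thus changed with the way reads in 1 library were assigned, and no setting called it. A microRNA gene inside Cfb, Mir6972, had at most 1 read equivalent in any library.

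**Figure D2:**
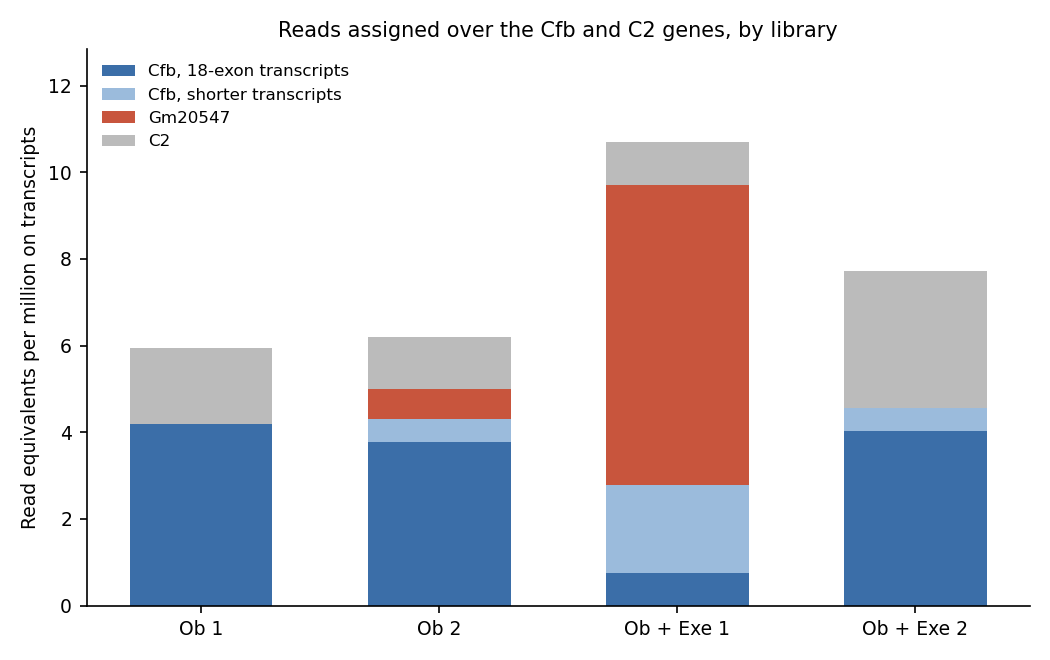
Depth-scaled read equivalents (per 1000000 on transcripts), stacked by gene and transcript class over Cfb, the overlapping gene model Gm20547 and C2, for each of the 4 libraries. Cfb alone is at 2.79 to 4.56 in all libraries, and Ob + Exe replicate 1 differs by a Gm20547 share of 6.91 and a small 18-exon share of 0.763.

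Adipsin, the protease that activates factor B (Cfd, ENSMUSG00000061780.6, chr10:79890853-79892655, plus strand), had scaled FPKM of 1.61 and 0.917 in Ob replicates 1 and 2 against 1.51 and 0.701 in Ob + Exe. The replicates of a group differed more than the groups: replicate 1 was 1.76-fold above replicate 2 in Ob and 2.15-fold above it in Ob + Exe, and the groups overlapped. The means were 1.27 ± 0.493 and 1.10 ± 0.571 (SD, n = 2 each), a log2 fold change of -0.22 (SE 0.571, 95% interval -1.63 to 1.19, limma adjusted p = 0.982). This interval held both a fall and a rise of more than 1 on the log2 scale. Without Ob replicate 1 the log2 fold change was 0.15, and without Ob + Exe replicate 2 it was 0.28, so its sign depended on either library.

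Few reads stood behind the adipsin values, with 101 and 56 read equivalents for Ob against 81 and 36 for Ob + Exe. One transcript of 5 exons carried 95.9% of the FPKM in Ob replicate 1 and 100% in the other libraries. No other annotated gene overlapped Cfd.

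Because adipsin is an adipocyte product, its level was set beside 9 adipocyte genes of the same libraries that were tested, out of 12 listed. Of the 9, 4 had an estimate above 0 and 5 below, 0 were called and 1 had an unadjusted p under 0.05. That gene was Fabp4, a fatty acid carrier, at 59.5 and 57.5 scaled FPKM for Ob against 105 and 77.7 for Ob + Exe (log2 fold change 0.62, adjusted p = 0.960). Both Ob + Exe libraries stood above both Ob libraries for 2 of the 9 (Fabp4 and Lpl). Both stood below for 3 (Car3, Acaca and Fasn), with log2 fold changes of -0.96, -0.71 and -0.22. Of all genes tested, 14.0% stood above in this way, and 32.7% had groups that did not overlap in either direction. Adipoq (adiponectin) was present at 4.05, 5.96, 4.12 and 8.66 scaled FPKM in Ob replicates 1 and 2 and Ob + Exe replicates 1 and 2. Which marrow cells the RNA of the listed adipocyte genes came from was not tested. Lep was listed at 0 in all libraries, and Plin1 and Plin4, which coat fat droplets, were at most 0.0554 and 0.141, while Lpl ran from 9.87 to 13.6 and Cebpa from 14.1 to 20.6, and these adipocyte genes were chosen to be named after their values were seen. On the log2 scale Cfd was below the mean of the 9 genes by a difference of -1.37 and -2.46 for Ob against -1.54 and -2.41 for Ob + Exe. The group difference of this measure was -0.06 (exact two-sided permutation p = 1.0, where 2 against 2 libraries cannot go below 0.333). Adipsin was thus low in both replicates 2 relative to the adipocyte genes too. In Ob + Exe replicate 2, where adipsin was lowest, the mean log2 value of the 9 genes was lowest too (2.09). Adipoq was highest in that library.

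Properdin, which stabilises the convertase (Cfp, ENSMUSG00000001128.7, chrX:20925454-20931555, minus strand), varied least among the members. Its scaled FPKM were 46.1 and 43.6 in Ob replicates 1 and 2 against 50.3 and 49.8 in Ob + Exe, a 1.15-fold range over all 4. Both Ob + Exe libraries stood above both Ob libraries after scaling, while the deposited FPKM overlapped, at 47.3 and 45.0 for Ob against 50.0 and 47.3 for Ob + Exe. The means were 44.9 ± 1.77 and 50.0 ± 0.380 (SD, n = 2 each), a log2 fold change of 0.16 (SE 0.189, 95% interval -0.31 to 0.62, limma adjusted p = 0.971). Properdin was the only member whose interval lay within 1 on either side of 0, so a change large enough to be called was outside the 95% interval for this gene alone. The 9-exon transcript made up 85.8% to 95.8% of its FPKM, and a 3-exon processed transcript the rest.

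C5, the substrate of the terminal step (Hc, ENSMUSG00000026874.10, chr2:34983331-35061438, minus strand), had scaled FPKM of 0.387 and 0.0636 in Ob replicates 1 and 2 against 0.133 and 0.360 in Ob + Exe. The spread within each group, 6.09-fold in Ob, was larger than the difference between the groups, which overlapped. The log2 fold change was 0.21 (SE 0.888, 95% interval -1.99 to 2.41, limma adjusted p = 0.985), the widest interval of the members. Only 23 to 108 read equivalents per library fell on the gene, mostly on the 41-exon transcript, and the antisense gene Gm13449 inside Hc had 3 in Ob replicate 1 and 0 elsewhere. Without Ob replicate 2 the log2 fold change was -0.58, and without Ob + Exe replicate 2 it was -0.28. Of 8 hepatocyte genes listed, 1 was high enough to be tested and 3 were at 0 in all libraries, and the 8 together summed to 0 to 0.684 scaled FPKM.

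The receptor for C3a (C3ar1, ENSMUSG00000040552.8, chr6:122847138-122856161, minus strand) had the largest estimate of the 7 members. Its scaled FPKM were 0.718 and 0.884 in Ob replicates 1 and 2 against 1.24 and 1.37 in Ob + Exe. Both Ob + Exe libraries stood above both Ob libraries here, in the deposited FPKM and in depth-scaled read equivalents (3.96 and 5.01 for Ob, 7.05 and 6.98 for Ob + Exe), and C3ar1 was the only member for which all 3 scales gave this order. The means were 0.801 ± 0.118 and 1.31 ± 0.0926 (SD, n = 2 each), a 63.4% higher mean and a log2 fold change of 0.65 (SE 0.455, 95% interval -0.48 to 1.78, limma adjusted p = 0.960). The difference exceeded the SD of either group but did not pass the test, and in the ranking of all genes by p it came 3871st of 18596. It was carried by a single 2-exon transcript with 210 to 326 read equivalents per library, and across 15 alternative settings the estimate stayed between 0.36 and 0.77 with no p below 0.0825. The 12 listed monocyte and macrophage genes, a class of cells that carries this receptor, summed to 478 and 422 scaled FPKM for Ob against 406 and 476 for Ob + Exe. All 12 were tested, 3 had an estimate above 0, 9 below, and 0 were called. Their sum did not share the order of C3ar1 over the libraries, and 2 of the 12, Ccr2 and Adgre1, did.

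The receptor for C5a (C5ar1, ENSMUSG00000049130.6, chr7:16246743-16259540, minus strand) had scaled FPKM of 29.7 and 16.6 in Ob replicates 1 and 2 against 22.4 and 43.1 in Ob + Exe. The highest and lowest values were both in replicates 2, of opposite groups, and the groups overlapped. The means were 23.2 ± 9.27 and 32.7 ± 14.7 (SD, n = 2 each), a log2 fold change of 0.48 (SE 0.420, 95% interval -0.56 to 1.52, limma adjusted p = 0.960). The estimate moved with each library: it was 0.89 without Ob replicate 1, 0.05 without Ob replicate 2, 0.95 without Ob + Exe replicate 1 and 0.00 without Ob + Exe replicate 2. The 2-exon transcript carried all of the FPKM in 3 libraries and 78.4% in Ob replicate 1, where a 3-exon transcript with 1083 read equivalents made up the rest.

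**Figure D3:**
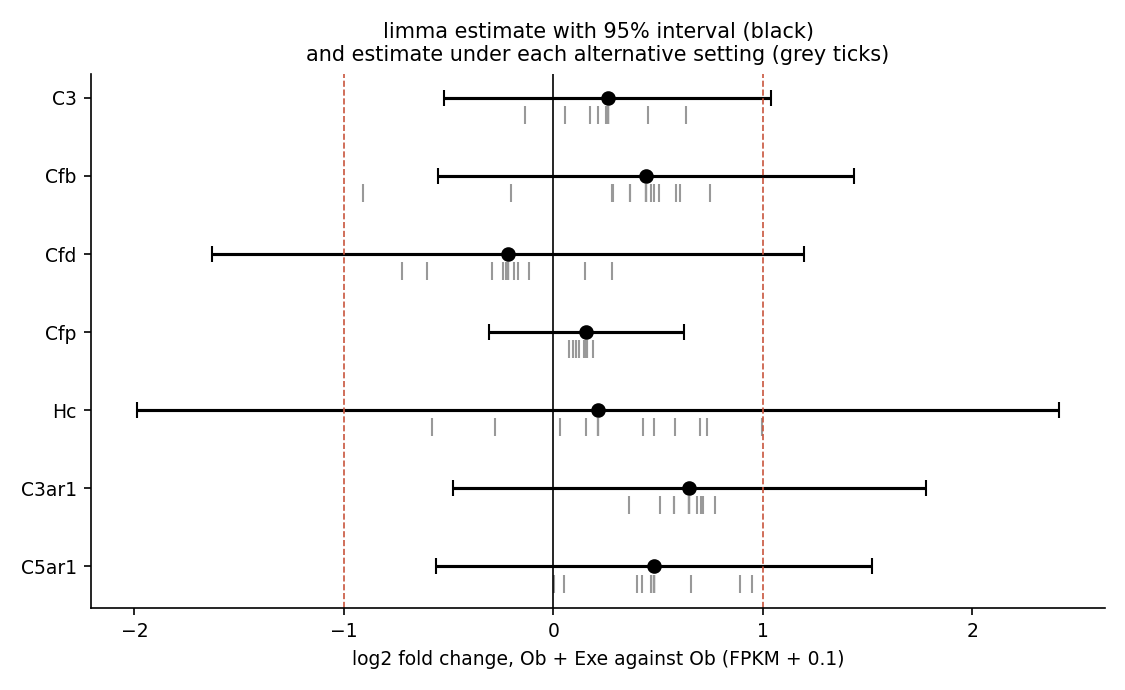
Log2 fold change of Ob + Exe against Ob for the 7 members with the 95% interval from limma (black), and the estimate under each alternative setting (grey ticks); dashed lines mark a change of 1. Every interval includes 0, only that of Cfp (-0.31 to 0.62) stays between the dashed lines, and the ticks of C3, Cfb, Cfd and Hc lie on both sides of 0.

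The members differed in which libraries they were high in. C3, Hc and C5ar1 were higher in Ob replicate 1 and Ob + Exe replicate 2 than in the other libraries, an order that crosses the groups. Of the 12 neutrophil genes, 9 were high in the same libraries, while Mpo and Elane were high in both replicates 1 and Camp in both Ob + Exe libraries. The list had a mean log2 value of 9.77 and 8.90 for Ob against 9.35 and 9.97 for Ob + Exe, and its summed level ran from 28334 in Ob replicate 2 to 65962 in Ob + Exe replicate 2. All 12 were high enough to be tested, 11 had an estimate above 0 and 0 were called. Of the 8 mast cell and basophil genes, 5 were high in these libraries too, and the list mean (3.56 and 2.97 for Ob against 3.23 and 3.67 for Ob + Exe) had the same order as that of the neutrophil list. Outside these cell lists, the pattern was found in 2 of 2 terminal, 1 of 8 classical and 0 of 3 lectin pathway genes. Also, 2 of 8 complement regulators and 3 of 8 other complement receptors were high in these libraries. So were 2 of 8 erythroid, 2 of 8 B cell and 2 of 12 monocyte and macrophage genes, but 0 of 9 adipocyte and 0 of 12 stroma and fibroblast genes. The share of all genes tested with this pattern was not counted, so these counts have no background to be set against. The part of RNA from neutrophils, mast cells and basophils in the values of C3, Hc and C5ar1 was not tested. Cfd followed another order, high in both replicates 1, and the mean log2 value of the 9 adipocyte genes (2.15 and 2.48 for Ob, 2.23 and 2.09 for Ob + Exe) did not share it.

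Among the 105 other listed genes that were tested, the gene whose pattern over the 4 libraries was nearest to C3 was C6, a component of the membrane attack complex, with a root mean square difference of 0.0395 in centred log2 value. Next came Itgb2, the shared beta chain of the leukocyte integrins (0.0529), and Cr1l, a membrane regulator that limits C3 deposition in rodents (0.0897). C6 itself lay at 0.0919 to 0.264 scaled FPKM, so its pattern rests on few reads. For Cfd the nearest were less close, with Mpo, the myeloperoxidase of immature neutrophils, at 0.189, Cx3cr1, a chemokine receptor of monocytes, at 0.301 and Thy1, a surface glycoprotein, at 0.330. No adipocyte gene was among these 3, where 9 of the 105 genes were adipocyte genes. The pattern of Cfd, with 36 to 101 read equivalents per library, rests on few reads too. With only 4 libraries such likeness is a description.

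**Figure D4:**
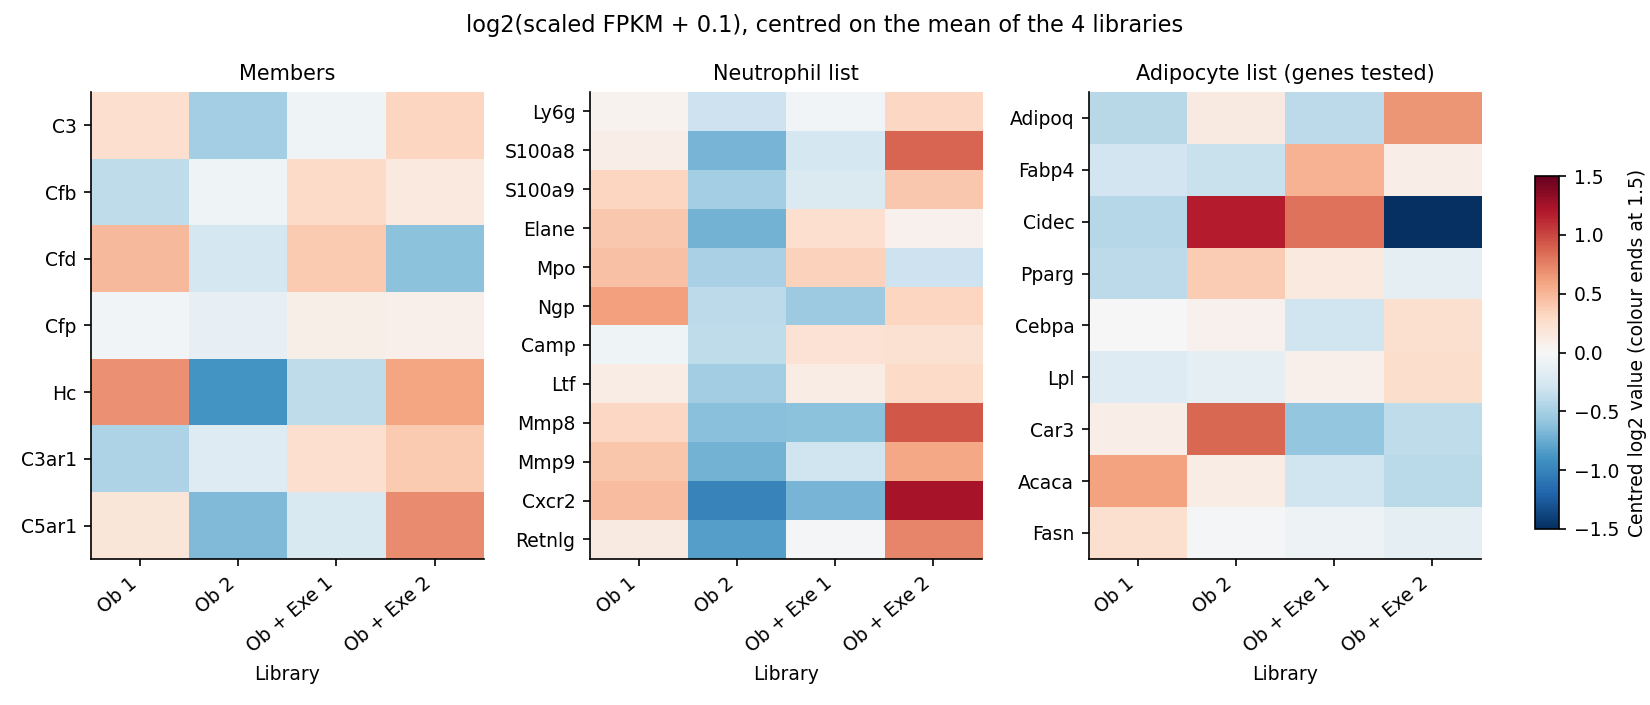
Log2 of scaled FPKM plus 0.1, centred on the mean of the 4 libraries, for the 7 members, the 12 neutrophil genes and the 9 adipocyte genes tested (red, above the mean; blue, below; colours end at 1.5). C3, Hc and C5ar1 are above their mean in Ob replicate 1 and Ob + Exe replicate 2, 9 of the 12 neutrophil genes are higher in these libraries than in the others, and Cfd is above its mean in both replicates 1.

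Of 44 other complement genes listed, 29 were high enough to be tested and 9 were at 0 in all libraries. Estimates were above 0 for 17 and below 0 for 12, with a median log2 fold change of 0.08 beside -0.02 over all genes tested. Limma called 0 of the 29, where 3.71% of all genes were called, and 2 had an unadjusted p under 0.05; voom likewise called 0 and gave 2. The groups did not overlap for 9 of the 29, with Ob + Exe above for 4 and below for 5, beside 32.7% of all genes in either direction. The 2 with a p under 0.05, named after their values were seen, were Serping1, the C1 inhibitor (6.08 and 9.74 for Ob, 13.7 and 13.9 for Ob + Exe, log2 fold change 0.83), and C1qbp, a mitochondrial protein that binds C1q (46.2 and 39.3 for Ob, 26.5 and 26.8 for Ob + Exe, log2 fold change -0.68). The adjusted p of both was 0.960.

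In the classical pathway all 8 genes were tested, and the C1q chains C1qb and C1qc, made by macrophages, were the most abundant at 21.3 and 18.3 scaled FPKM on average, with log2 fold changes of -0.01 and 0.08. In the lectin pathway 3 of 8 genes were tested. The myeloid ficolin Fcnb had 104 and 50.4 for Ob against 114 and 97.0 for Ob + Exe (log2 fold change 0.54, adjusted p = 0.960), and Fcna averaged 7.01 with a log2 fold change of 0.00. The terminal pathway was low, with 2 of 6 genes tested, C8g at 1.55 and C6 at 0.189 scaled FPKM on average, and log2 fold changes of 0.23 and 0.34.

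Among the 14 regulators, 8 were tested, and the most abundant were the membrane proteins Cr1l and Cd55, which limit convertases on host cells, at 32.9 and 19.7 scaled FPKM on average. Their log2 fold changes were 0.40 and -0.07. Cfi, which degrades C3b, and C4bp were at 0 in all libraries. Both were named after their values were seen. Among the 8 other receptors, all tested, Itgb2 and Itgam, the chains of complement receptor 3, averaged 95.9 and 86.0 with log2 fold changes of 0.17 and 0.29. The estimate farthest from 0 among all 29 genes was that of Vsig4, a complement receptor of tissue macrophages named after its values were seen, at 1.48 and 0.854 for Ob against 0.755 and 0 for Ob + Exe (log2 fold change -2.07, adjusted p = 0.960). It was called only with the replicate block or without Ob + Exe replicate 1.

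**Figure D5:**
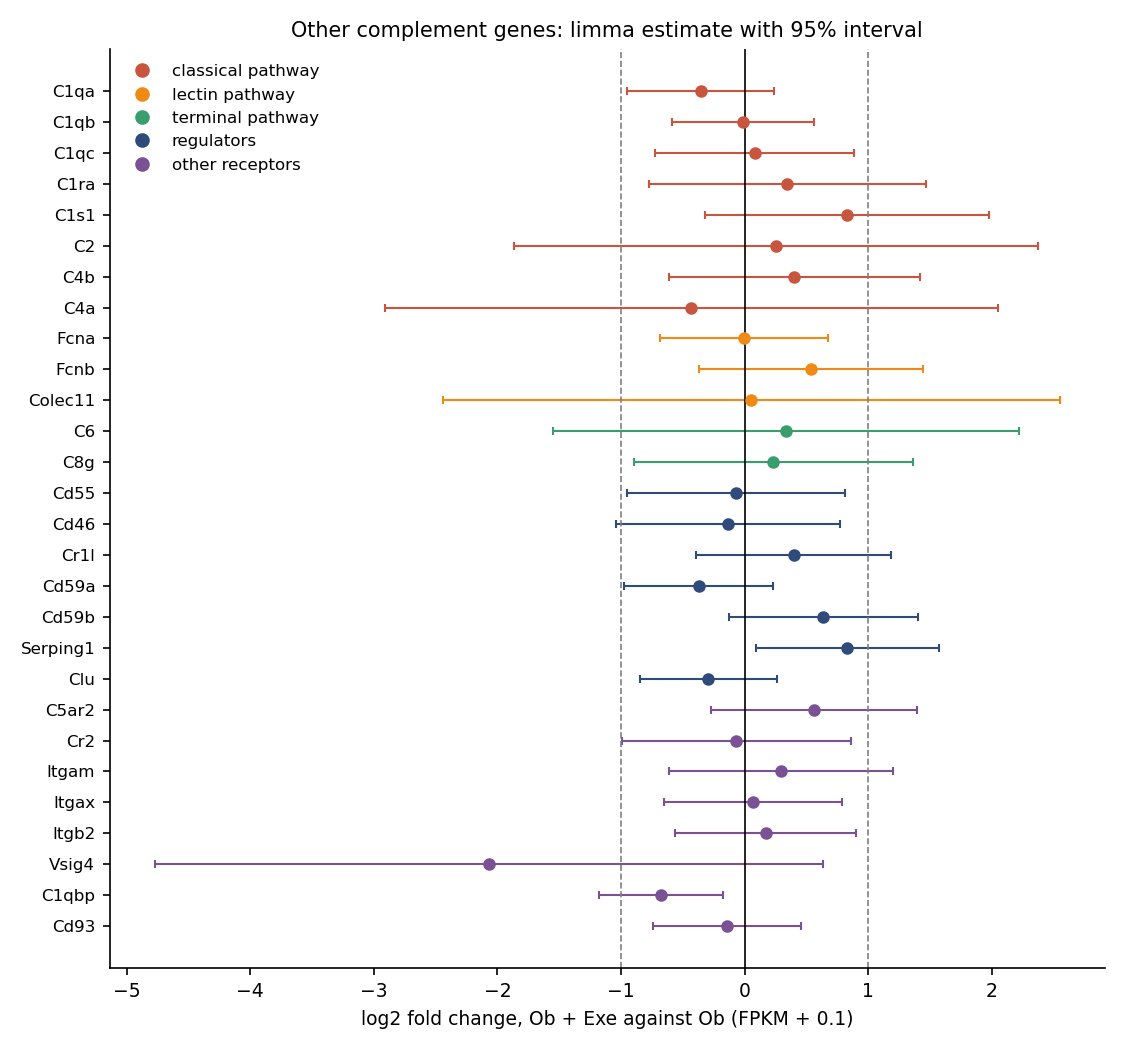
Log2 fold change of Ob + Exe against Ob with the 95% interval from limma for 28 of the 29 other complement genes tested, coloured by pathway; dashed lines mark a change of 1. The intervals of Serping1 (estimate 0.83) and C1qbp (-0.68) exclude 0, and that of every other gene plotted includes it.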

How the data were processed

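Marrow RNA of 2 Ob and 2 Ob + Exe libraries was enriched for poly-A and sequenced as paired reads of 150 bases. The authors trimmed reads with fastp, removed rRNA reads, aligned the rest to GRCm38 with HISAT2 and used StringTie for the transcripts of GENCODE vM25. The authors deposited, for each library, transcript coverage (a signal not normalized for depth) and FPKM. Strand-specific counting is not stated in the sources used here. The authors' own test was DESeq2, which takes read counts and was not used here.

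Transcript FPKM were summed per gene. Those with a mean of at least 0.1 were kept, libraries were scaled by median-of-ratios factors of 0.949 to 1.03 (from genes whose mean FPKM was 1 or more), and log2(scaled FPKM + 0.1) was fitted with limma 3.58.1 (lmFit, eBayes with an intensity trend, 2 residual and 3.73 prior degrees of freedom) in R 4.3.3. Fold changes are on this scale and understate changes of low genes. P values were adjusted by the Benjamini-Hochberg method over the 18596 genes. The limma step was tested on simulated data. Read equivalents (coverage times length over 150) were used for depth and for voom. All 7 members had the same coordinates in GENCODE vM21, which gave gene types. Promoters were taken from RefSeq. Python 3.11.15, pandas 2.3.3 and matplotlib 3.10.9 were used.

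The members, the gene lists and the tests were chosen with earlier results of these data known. Named are all members, the 2 most abundant genes of each other complement list and every one called, the 3 nearest patterns of Cfd and C3, and genes overlapping a member. Other genes were named after their values were seen. Alternatives were other pseudocounts (1, 0.01), minimum values (1, none) and scalings (none, quantile), no intensity trend, voom, the leading transcript alone, a replicate block and leaving out each library. With 2 libraries per group, the number of libraries limits the precision. Values of 1 of the other complement genes tested are not reported here.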

Additional observations from a re-analysis of the deposited data

How the results depend on the processing

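None of the 7 members was called in any of the 106 member estimates under alternative settings. No adjusted p was under 0.05, and 1 unadjusted p was, that of C5ar1 with the crossed pairing. The estimate differed from that of the report in 71 of the 106, of which 64 kept the direction. The exceptions in direction were the voom estimate of Cfb (-0.20) and that of its leading transcript (-0.91), where values in the report show the assignment of reads to transcripts in Ob + Exe replicate 1, and estimates with 1 library left out, whose ranges were -0.14 to 0.64 for C3, -0.72 to 0.28 for Cfd and -0.58 to 0.99 for Hc. Without 1 library, that library's group holds a lone sample, which is assumed to vary like the others. Cfd relative to the adipocyte genes was 0.0763 at a pseudocount of 0.01 and ran from -0.60 to 0.48 with 1 library left out. Hc could not be tested at a minimum mean FPKM of 1. Unscaled FPKM moved the median of all genes to -0.10 and turned no member.

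Across all genes, 690 were called (182 higher, 508 lower), 224 at a pseudocount of 1, 267 at a minimum mean FPKM of 1, 1061 without the intensity trend, 453 by voom and 746 to 1924 with 1 library left out (1264 without Ob + Exe replicate 1, 1924 without Ob + Exe replicate 2). The cause was not tested. The count of higher and lower calls was 246 and 417 after quantile normalization. Of the other complement genes, 1 was called without a filter (C7), 1 with the replicate block (Vsig4) and 0 to 1 with 1 library left out (Fcnb without Ob replicate 1, Serping1 without Ob replicate 2, Vsig4 without Ob + Exe replicate 1).

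The differences between replicates 1 and 2 were not alike in the groups. Their correlation was -0.11 over all genes tested and -0.24 over those with a mean FPKM of at least 1. This correlation cannot show whether libraries of the same number were handled as pairs, since other differences between libraries can hide a pairing. In this balanced layout a replicate block cannot move an estimate, so the members stayed at 0.26 for C3, 0.44 for Cfb, -0.22 for Cfd, 0.16 for Cfp, 0.21 for Hc, 0.65 for C3ar1 and 0.48 for C5ar1. The block called none of them and gave 776 calls across all genes, 28 with an adjusted p under 0.05, where the report had none. A crossed pairing, chosen after seeing the data, gave 782 calls, 6 with an adjusted p under 0.05.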
